A study of Mus musculus with 4 samples.

Results

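The 8 genes described here are *Lepr*, *Insr*, *Igf1r*, *Irs1*, *Irs2*, *Socs3*, *Ptpn1* and *Stat3*, the receptors for leptin, insulin and insulin-like growth factor 1 and proteins that carry or dampen their signals inside the cell. They were taken by name from the 32285 genes counted, and each was followed across all cell types and all neuronal clusters of the posterior hindbrain. Nuclei came from the part of the mouse hindbrain that holds the area postrema (AP) and the nucleus tractus solitarius (NTS), and were profiled with the 10x Genomics Chromium 3′ kit in 4 libraries, 2 per group. AgRP-Gq;POMC-Gi mice carried AgRP-IRES-Cre+/-, hM3DGq fl/-, POMC-Dre+/- and hM4DGi fl/-, so that clozapine-N-oxide (CNO) activates AgRP neurons and silences POMC neurons. The study describes both populations in the arcuate nucleus of the hypothalamus. Whether any cells of the profiled tissue carried these receptors was not tested. Control mice are labelled as wild type. The study calls the animals of this experiment control mice, and its methods define that group as carrying the receptor alleles without the recombinases. The label and this definition differ, and nothing states how they are reconciled for the libraries. All mice of both groups were adults of 12 to 20 weeks, of both sexes, and were killed 1 h after CNO at 3 mg per kg without food. Animals of a condition were pooled (2 mice per group are given), and the labels do not tie mice to libraries. The p values below therefore measure only the spread between libraries, which may be partly technical and need not be that between animals.

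The authors kept 39461 nuclei, of which 12539 are neurons in 134 clusters, and assigned them to 14 cell types. These assignments were used as deposited, and the paper gives a slightly higher count of neuronal clusters. Libraries held 9723 to 10051 kept nuclei and 48904976 to 53089402 UMIs (unique molecular identifiers, that is, counted transcripts), and their neurons held 26860073 to 35583732 UMIs. Of 39293 distinct barcode sequences, 168 occurred in more than 1 library. AgRP-Gq;POMC-Gi replicate 1 stood apart in neurons, since its genes lay at a median distance of 0.144 log2 units from the median of the other 3 libraries, against 0.0649 to 0.0695 for each of the others. *Xist*, transcribed from the inactive X chromosome, was at 16.2 CPM in neurons of AgRP-Gq;POMC-Gi replicate 2. In neurons of the other libraries it was at 319 to 541 CPM. CPM is UMIs of a gene per 1e6 UMIs of the same nuclei. The AgRP-Gq;POMC-Gi libraries thus differed in their mix of sexes, so leaving out 1 of them also changed that mix in the comparison. Of the choroid plexus nuclei, 436 and 329 came from the replicate 2 libraries and only 2 and 6 from the replicate 1 libraries. The 3 neuronal markers *Rbfox3*, *Snap25* and *Syt1* summed to 2263 to 2346 CPM in neurons of the 4 libraries.

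Leptin, released by fat cells, binds the receptor encoded by *Lepr*, whose long form activates the kinase Jak2 and, through it, the transcription factor Stat3. Stat3 switches on *Socs3*, whose product blocks the receptor, and the tyrosine phosphatase PTP1B, encoded by *Ptpn1*, removes phosphate from Jak2 and from the insulin receptor. The insulin receptor (*Insr*) and the insulin-like growth factor 1 receptor (*Igf1r*) are related tyrosine kinases that recruit the docking proteins Irs1 and Irs2, which start the signal through phosphatidylinositol 3-kinase. Neurons of the NTS and AP take up satiety signals from the gut and the blood, and leptin given to this area lowers food intake in rodents.

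*Lepr* gives rise to several receptor forms that share the extracellular part and the membrane span and differ in the tail inside the cell. The annotation (GENCODE M21 on GRCm38) holds 3 coding transcripts of the gene, which share their first 2667 coding bases. The coding sequence around the point where they part is shown because counts per gene cannot tell these forms apart, so every *Lepr* value below is the sum of the signalling and the short forms. Lower case marks the last 24 shared bases and capitals mark bases of that transcript alone, of which the first 60 are given for Lepr-201 and all for the others, ending with the stop codon.
Lepr-201: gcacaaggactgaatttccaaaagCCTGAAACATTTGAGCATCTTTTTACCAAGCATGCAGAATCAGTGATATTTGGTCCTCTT
Lepr-202: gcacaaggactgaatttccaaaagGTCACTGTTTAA
Lepr-203: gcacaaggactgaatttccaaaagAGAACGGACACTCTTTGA
Lepr-201 encodes 1162 residues and has 822 coding bases of its own, whereas Lepr-202 and Lepr-203 encode 892 and 894 residues and have 12 and 18 bases of their own. On chromosome 4, Lepr-202 ends at 101792258 and Lepr-203 at 101813667, before the end of Lepr-201 at 101815352.

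In the same annotation *Lepr* (ENSMUSG00000057722) spans 101717404 to 101815352 of chromosome 4 and *Igf1r* (ENSMUSG00000005533) 67952827 to 68233668 of chromosome 7, both on the plus strand. *Insr* (ENSMUSG00000005534) lies at 3122061 to 3279617 and *Irs2* (ENSMUSG00000038894) at 10984681 to 11008458 of chromosome 8, both on the minus strand. *Irs1* (ENSMUSG00000055980) spans 82233101 to 82291416 of chromosome 1, minus strand, and *Ptpn1* (ENSMUSG00000027540) 167932057 to 167979385 of chromosome 2, plus strand. *Socs3* (ENSMUSG00000053113) at 117966079 to 117970047 and *Stat3* (ENSMUSG00000004040) at 100885098 to 100939540 both lie on the minus strand of chromosome 11. No member shares its strand with an overlapping gene, while *Insr*, *Irs1*, *Irs2* and *Stat3* overlap genes on the opposite strand. The members range from 3969 bases for *Socs3* to 280842 bases for *Igf1r*, and in nuclei reads also come from introns, so levels are compared between cells and not between genes.

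Levels across cell types are described without a test, because cell types were defined from expression. Values are the mean ± SD of the 4 libraries, and a cell type is said to lie above another where each of its libraries exceeded each library of the other. Choroid plexus is left out of the orders, which cover 13 cell types.

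**Figure D1:**
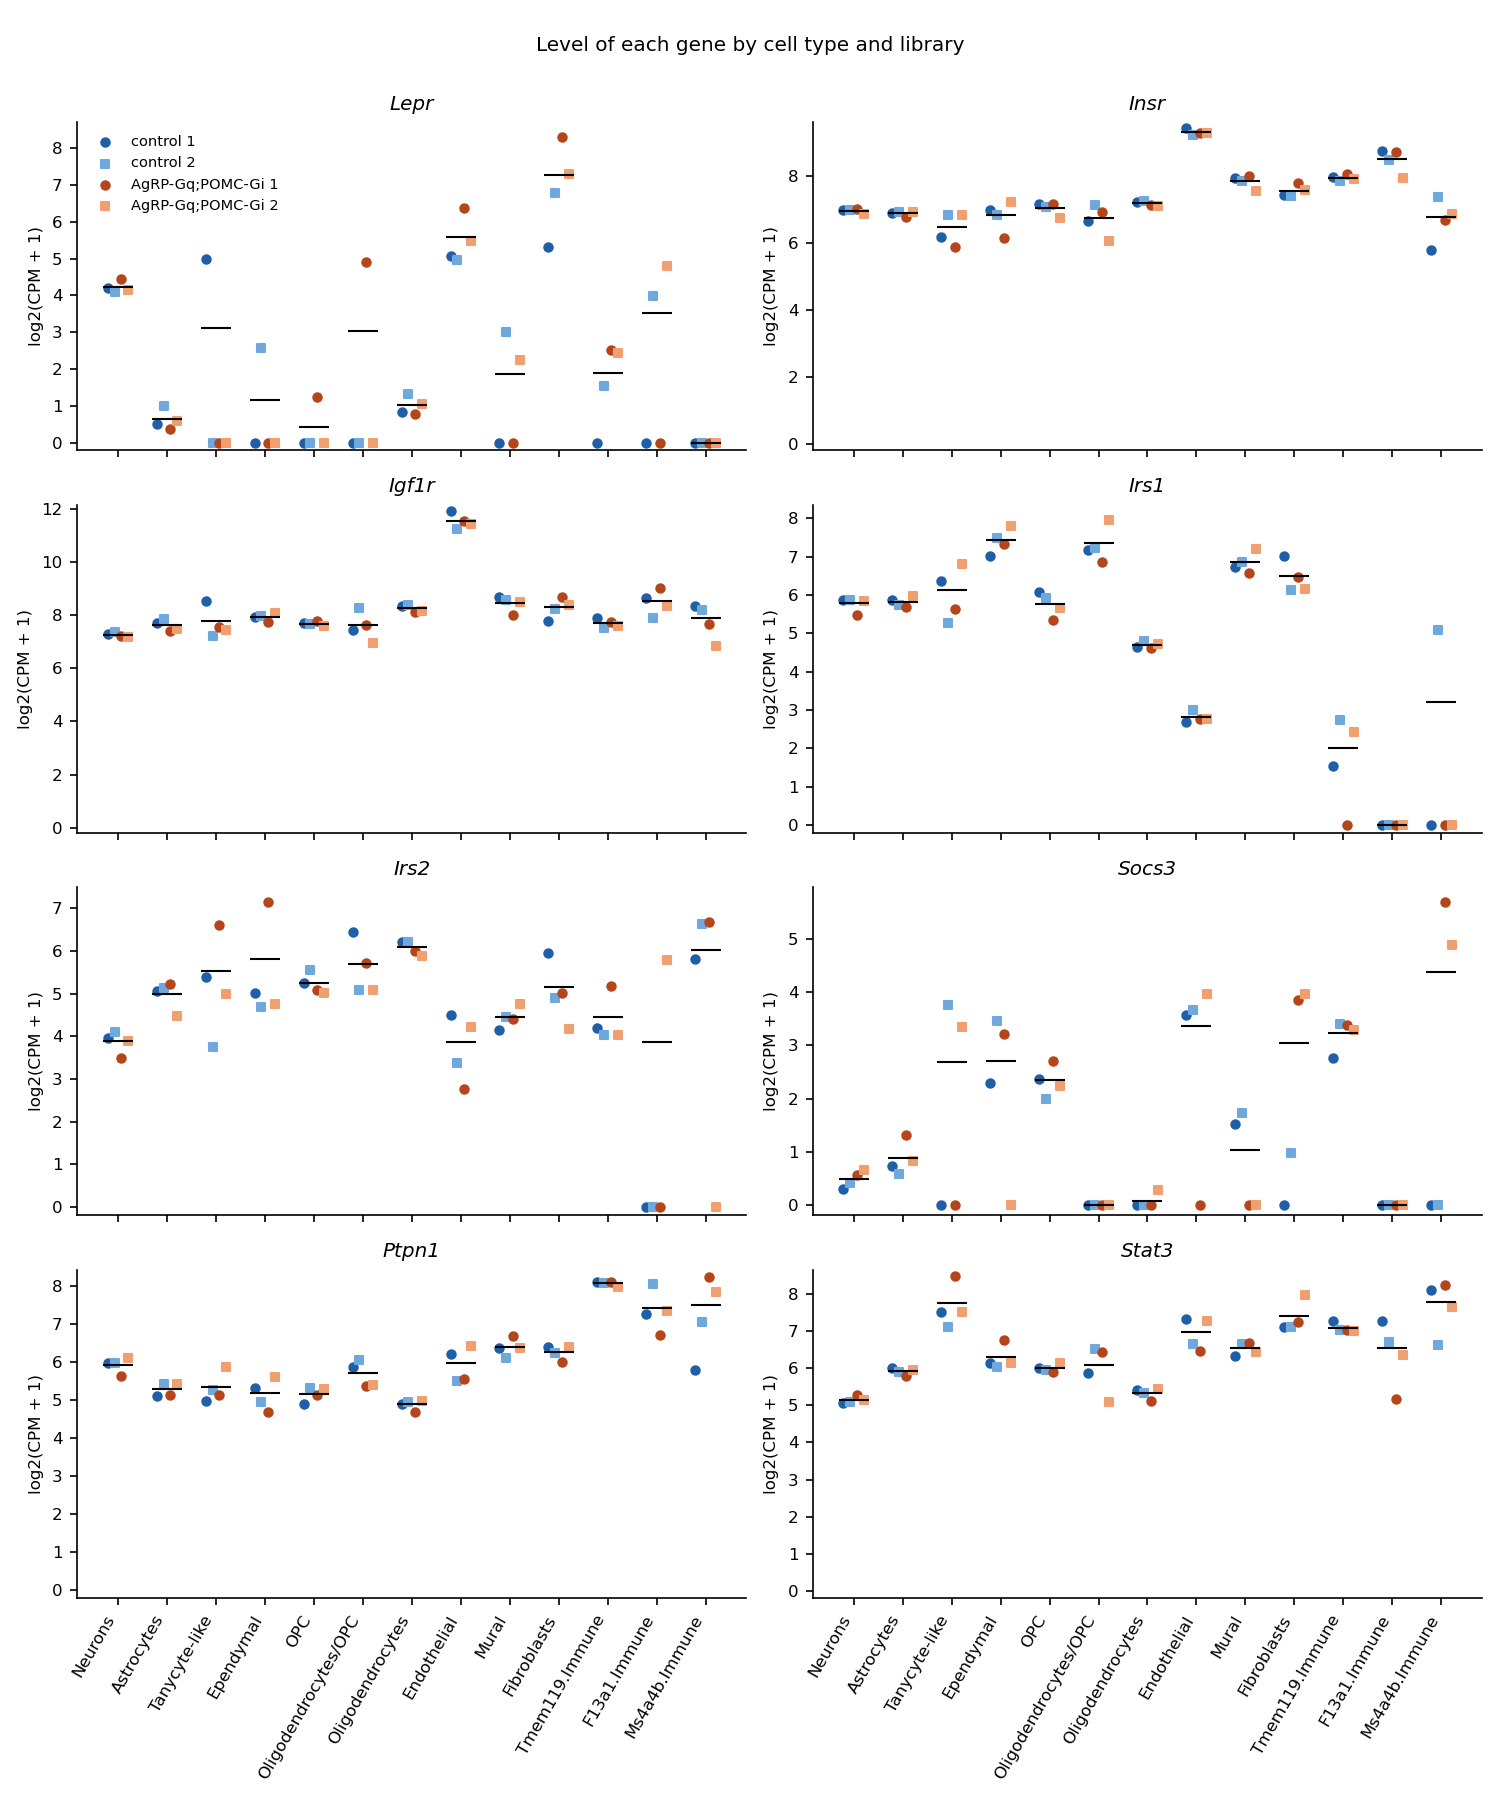
Level of each of the 8 genes, as log2(CPM + 1), in 13 cell types, with 1 point per library and a bar at the mean CPM. The bars of *Igf1r* in endothelial cells (3044 CPM) and of *Ptpn1* in Tmem119 immune cells (268 CPM) stand highest in their panels, and *Lepr* is near 0 in astrocytes, oligodendrocytes and OPC.

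The leptin receptor was found in fibroblasts, endothelial cells, choroid plexus and neurons, and hardly in oligodendrocytes, astrocytes and oligodendrocyte precursor cells. *Lepr* was highest in fibroblasts, at 154 ± 116 CPM (n = 4 libraries), where 23.2% of 819 nuclei had a UMI (95% Clopper-Pearson interval 20.3 to 26.2%, which like all intervals here covers counting error only). Endothelial cells followed with 47.0 ± 23.7 CPM and 6.21% of nuclei, and overlapped the lowest fibroblast library. In choroid plexus only the replicate 2 libraries held enough nuclei, and there *Lepr* stood at 93.6 and 112 CPM. Neurons were next of the 13 types, at 17.7 ± 2.03 CPM, with a UMI in 1583 of 12539 nuclei (12.6%, interval 12.0 to 13.2%), and all their libraries lay above those of 7 other types. F13a1 immune cells followed at 10.5 CPM and overlapped neurons. Tanycyte-like cells came next at 7.68 CPM and the intermediate Oligodendrocytes/OPC nuclei at 7.22 CPM. The share was 0.280% in oligodendrocytes, 0.206% in astrocytes and 0.128% in oligodendrocyte precursor cells (OPC), and 0 of 61 Ms4a4b immune nuclei had a UMI, at a median depth of 1472 UMIs. By the limit of 3 counts of the total used for zeros here, 0 of 61 allows a share of nuclei with a UMI of up to 4.92%, and says nothing of nuclei that express the gene below this depth. Neurons were also deeper, with a median of 8704 UMIs per nucleus against 2460 in oligodendrocytes, but with every nucleus thinned to 800 UMIs the share with *Lepr* was 1.30% for neurons against 0.0951% for oligodendrocytes. At that depth the share was 9.52% in fibroblasts and 3.30% in endothelial cells.

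UMIs of the insulin receptor were counted in every cell type and stood out in vessels. Free RNA was not corrected for, and the 3 neuronal markers named above also averaged 128 to 433 CPM in the 13 other types, so a UMI alone is not read here as expression in the types with low levels. *Insr* reached 637 ± 38.7 CPM in endothelial cells, with 692 and 602 CPM in control libraries, against 623 and 630 CPM with AgRP-Gq;POMC-Gi, above every library of the 12 other types. F13a1 immune cells, the border macrophages, came next with 362 ± 86.4 CPM, and Tmem119 immune cells, the microglia, with 246 ± 15.5 CPM. Neurons had 124 ± 5.98 CPM, the eighth place, with a UMI in 62.0% of nuclei (interval 61.2 to 62.9%). This share was the highest of any cell type, but after thinning to 800 UMIs it was 9.16% in neurons and 36.4% in endothelial cells, so that the order of the shares turned at equal depth.

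*Igf1r* was concentrated in endothelial cells to a greater extent. Its level there was 3044 ± 606 CPM, with 3881 and 2458 CPM in control libraries, against 3034 and 2801 CPM with AgRP-Gq;POMC-Gi, and 83.5% of endothelial nuclei had a UMI. The next type of the order, F13a1 immune cells, had 372 ± 122 CPM, and no library of any other type overlapped the endothelial ones. Neurons held the lowest mean of the 13 types, 154 ± 7.90 CPM, and their libraries were all below those of 9 types. Among the endothelial clusters, cluster 24 (341 nuclei) had *Igf1r* in 97.4% of nuclei and cluster 164 (46 nuclei, 34 of them from control replicate 2) in 30.4%, while *Insr* had its highest endothelial level in cluster 164, at 1162 CPM over the pooled nuclei.

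The docking proteins had a different distribution. *Irs1* was highest in ependymal cells, at 173 ± 38.8 CPM, ahead of the intermediate Oligodendrocytes/OPC nuclei (164 ± 58.0 CPM) and mural cells (115 ± 22.2 CPM), and these 3 overlapped. In endothelial cells, where both receptors peaked, *Irs1* stood at 6.02 ± 0.662 CPM with a UMI in 7 of 789 nuclei, and *Irs2* at 13.6 ± 7.33 CPM. *Irs1* was also scarce in Tmem119 immune cells (3.00 ± 2.54 CPM) and had no UMI in 88 F13a1 immune nuclei, which allows a share of nuclei with a UMI of up to 3.41% at a median depth of 1712 UMIs. Neurons had 54.0 ± 6.92 CPM of *Irs1*, with a UMI in 35.6% of nuclei. *Irs2* was highest in oligodendrocytes, at 67.1 ± 7.73 CPM, where *Irs1* was at 24.9 ± 1.54 CPM, and neurons had 13.7 ± 2.49 CPM of *Irs2*, below all libraries of 7 types. The first place of *Irs2* passed to other types without either control replicate or without AgRP-Gq;POMC-Gi replicate 2, and Ms4a4b immune cells (61 nuclei) had 63.8 ± 47.6 CPM and ependymal cells 55.6 ± 56.4 CPM.

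Of the genes downstream of leptin, *Stat3* had its lowest mean CPM of the 13 types in neurons, at 34.6 ± 2.54 CPM, below all libraries of 9 types. A *Stat3* UMI was counted in 25.4% of neurons, at a median of 8704 UMIs per nucleus. In endothelial nuclei, with a median of 1460 UMIs, the share ranged from 9.23% to 31.5% by cluster, so shares need not follow the order of CPM. Its highest means, 220 ± 91.5 CPM in Ms4a4b immune cells and 216 ± 97.9 CPM in tanycyte-like cells, were not apart from each other or from fibroblasts at 170 ± 54.6 CPM. *Ptpn1* had its highest mean in Tmem119 immune cells, at 268 ± 11.2 CPM, followed by Ms4a4b immune cells at 180 CPM and F13a1 immune cells at 172 CPM. Of the 12 other types, 2 overlapped Tmem119 immune cells. Its lowest mean was in oligodendrocytes, at 28.7 ± 2.52 CPM, not apart from OPC at 35.2 CPM, with neurons between at 60.5 ± 8.23 CPM. *Socs3* was rare throughout. Neurons held 52 UMIs of *Socs3* in 50 of 12539 nuclei (0.399%, interval 0.296 to 0.525%), and oligodendrocytes held 2 UMIs in 16816 nuclei. The highest means of *Socs3* were 19.9 CPM in Ms4a4b immune cells, which overlapped all 12 other types, and 9.28 CPM in endothelial cells. Tmem119 immune cells followed and had it in every library, at 8.37 ± 1.77 CPM.

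Within neurons the leptin receptor was the most unevenly spread of the members that could be ranked. Levels were compared over the 120 clusters of neurons in which each library had 5 nuclei or more, and again as a description. *Lepr* had a median of 10.6 CPM per cluster and a highest mean of 61.7 CPM, 5.82 times the median, and no UMI in 7 clusters. For *Insr*, *Igf1r*, *Irs1*, *Irs2*, *Ptpn1* and *Stat3* the highest cluster stood at 1.61 to 2.89 times the median, and each of them had a UMI in all 120 clusters. The 10 clusters with most *Lepr* held 26.1% of its UMIs in neurons and 9.38% of all neuronal UMIs. *Socs3* reached 10 UMIs in no cluster and had none in 86 of 120, so no order of clusters was drawn for it.

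**Figure D2:**
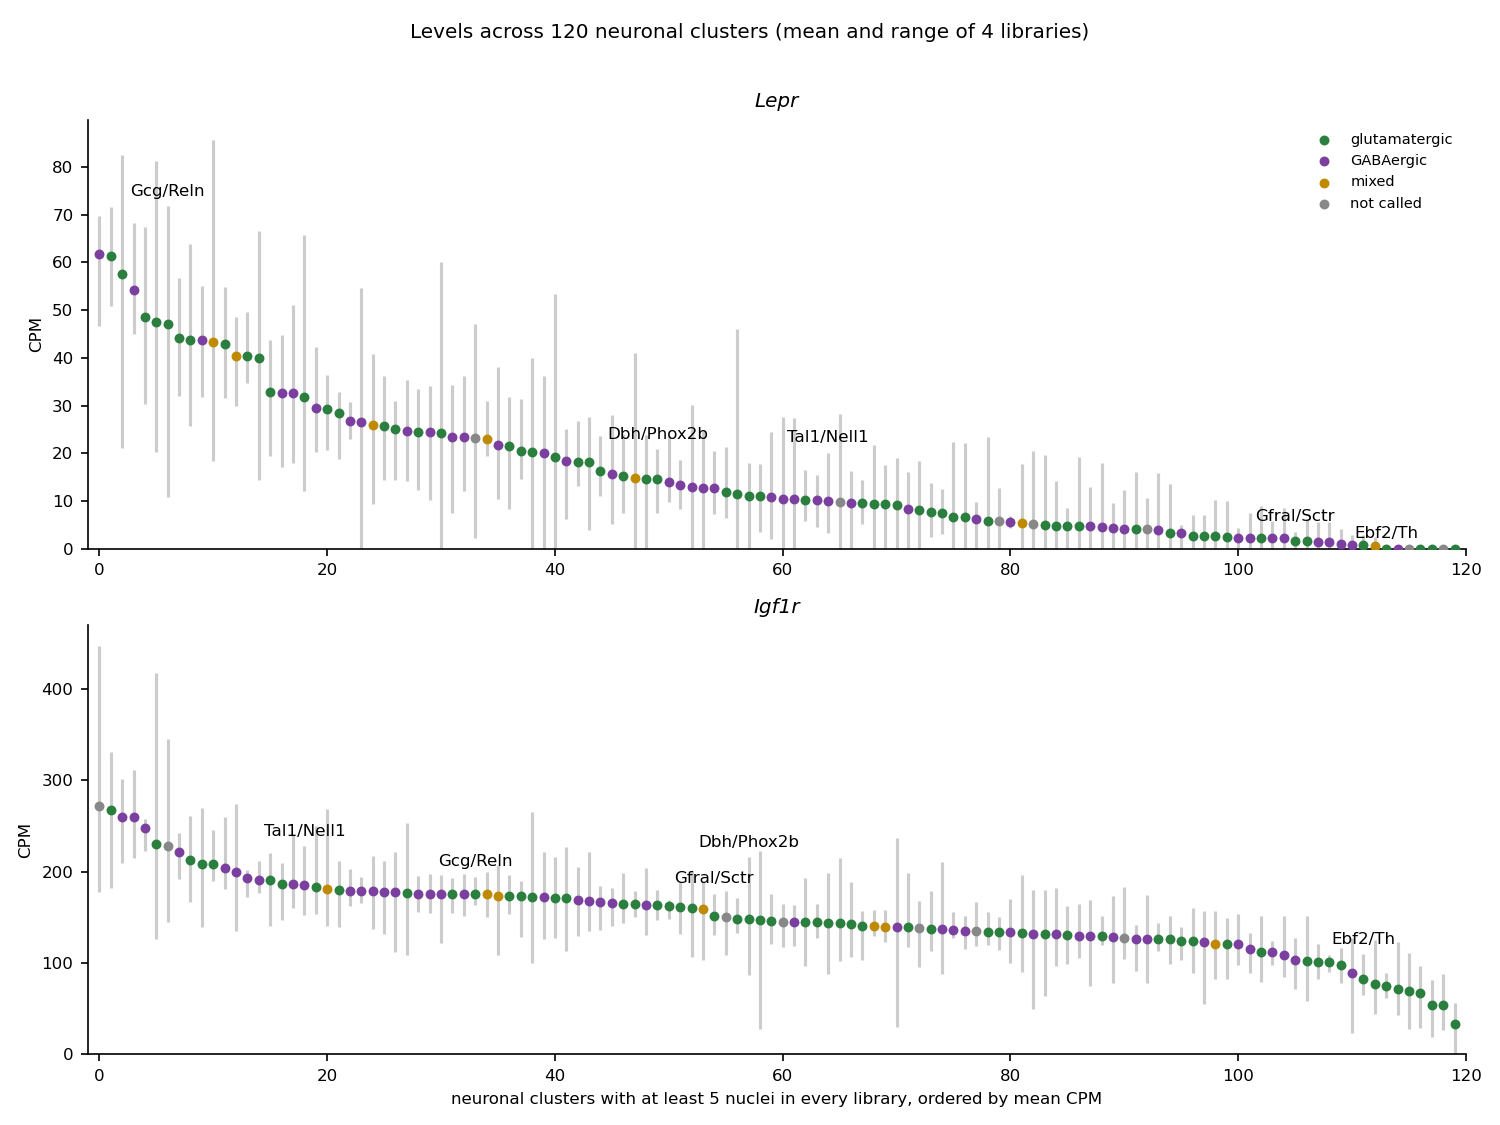
Mean CPM (points, coloured by transmitter class) and range of the 4 libraries (grey lines) of *Lepr* and *Igf1r* in 120 neuronal clusters, ordered by mean CPM, with 5 clusters named. *Lepr* falls from 61.7 CPM to 0, with the Gcg/Reln cluster among the highest and the Ebf2/Th cluster at 0, whereas *Igf1r* was counted in all 120 clusters.

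Cluster 78 (Ebf2/Adarb2) had the highest mean of *Lepr*, with 46.7 and 69.7 CPM in control libraries, against 60.6 and 69.7 CPM with AgRP-Gq;POMC-Gi and a UMI in 48.3% of 118 nuclei (interval 39.0 to 57.7%). Cluster 118 (Lhx9/Col25a1) had 61.3 ± 11.8 CPM of *Lepr* and the Prdm6/Grp cluster 57.5 ± 26.05 CPM, and neither was apart from cluster 78. All libraries of cluster 78 lay above those of 99 of the 119 other clusters for *Lepr*, and 20 overlapped. At equal depth of 2000 UMIs per nucleus, cluster 67 had the highest share of nuclei with *Lepr*, and without control replicate 2 or AgRP-Gq;POMC-Gi replicate 2 the Prdm6/Grp cluster and cluster 118 led, so the clusters at the top cannot be put in order.

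Of the clusters named after populations of the AP and NTS, the Gcg/Reln cluster carried *Lepr* and the Gfral/Sctr cluster hardly did. The Gcg/Reln cluster held 73.0% of all neuronal UMIs of *Gcg*, which encodes preproglucagon, the precursor of the satiety peptide GLP-1. A *Gcg* UMI was found in 15.7% of its nuclei, and whether *Gcg* and *Lepr* lay in the same nuclei was not tested. *Lepr* averaged 47.1 ± 26.1 CPM there, the seventh place, with a UMI in 25.8% of 89 nuclei. Cluster 97 held 53.3% of the neuronal UMIs of *Gfral*, the receptor for GDF15, with a *Gfral* UMI in 33.7% of its nuclei. It had 2 *Lepr* UMIs in 101 nuclei (1.98%). Cluster 63 (Ebf2/Th), with *Th* in 46.8% of nuclei and 23.9% of the neuronal *Th* UMIs, had a *Lepr* UMI in 0 of 139 nuclei. This allows a share with a *Lepr* UMI of up to 2.16%, at a median depth of 6283 UMIs. The *Dbh* neurons of cluster 76, with *Dbh* in 39.2% of nuclei, had 14.6 ± 5.58 CPM of *Lepr* (11.7% of 120 nuclei). Cluster 82 (Tal1/Nell1) had 10.0 ± 7.57 CPM of *Lepr* (7.08% of 113 nuclei). *Insr* was counted in 39.6% to 69.7% and *Igf1r* in 28.8% to 75.3% of the nuclei of these 5 clusters, with the lowest shares in cluster 63 for both.

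The other members had flatter orders, led by different clusters. *Insr* was highest in cluster 176 (Dkk2/Col25a1), at 197 ± 53.7 CPM, followed by cluster 150 (Nr5a2/Zfp804b) at 180 ± 108 CPM, where AgRP-Gq;POMC-Gi replicate 2 alone gave 342 CPM, and by cluster 60 (Trhde/Kcnmb2) at 178 ± 49.0 CPM. *Igf1r* was highest in cluster 104 (Gabra6/Fat2), at 271 ± 121 CPM, cluster 143 (Kcnq5/Hs3st4), at 267 ± 65.5 CPM, and cluster 59 (Kcnmb2/Sema3a), at 260 ± 39.0 CPM. *Gabra6*, named in the label of cluster 104, is a marker of cerebellar granule cells. *Irs1* led in cluster 162 (Chrdl1/Kcnh8) with 94.8 ± 13.1 CPM, in cluster 111 (Cartpt/Postn) with 85.8 ± 7.45 CPM and in cluster 74 (Rbm20/Nox4) with 77.6 ± 17.4 CPM, and cluster 162 kept the first place without each library in turn. *Irs2* led in cluster 56 (Kcnmb2/Sema3a) with 31.6 ± 8.26 CPM, in the serotonin neurons of the Tph2/Slc6a4 cluster with 31.0 ± 35.5 CPM from 15 UMIs and in the *Dbh* neurons of cluster 76 with 30.8 ± 17.97 CPM. *Ptpn1* was highest in cluster 146 (Rxfp1/Ebf2), at 125 ± 71.3 CPM, with 231 CPM in control replicate 1 and 82.5 to 102 CPM in the others, followed by cluster 38 (Kcnh8/Maf) at 86.4 ± 17.7 CPM and cluster 119 (Npas1/Nell1) at 86.0 ± 12.4 CPM, and cluster 146 also kept the first place without each library in turn. *Stat3* was highest in the Prph/Slc5a7 neurons, at 92.7 ± 71.4 CPM, then in cluster 53 (Gal/Dkk2) at 67.5 ± 28.9 CPM and in cluster 76 at 60.6 ± 18.3 CPM, and the Prph/Slc5a7 neurons lost the first place without control replicate 1. This Prph/Slc5a7 cluster carries genes of cholinergic motor neurons, with *Slc5a7*, the choline transporter, in 80.5% of nuclei.

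Neuronal clusters were classed as glutamatergic (69 clusters, 6201 nuclei) or GABAergic (46 clusters, 4933 nuclei) by a 4-fold difference between *Slc17a6* and *Slc32a1*, and the members differed little between these classes. The GABAergic level of *Igf1r* was 1.16 ± 0.0758 times the glutamatergic one (SD of the ratio, n = 4 libraries), and it was higher in 4 of 4 libraries. The ratio was 1.18 ± 0.129 for *Irs2*, 1.09 ± 0.0476 for *Irs1* and 1.09 ± 0.0625 for *Insr*, each again above 1 in 4 of 4 libraries. *Lepr* was lower in GABAergic clusters in all 4 libraries, with a ratio of 0.944 ± 0.0313, and so was *Stat3*, with 0.924 ± 0.0413. *Ptpn1* had a ratio of 0.972 ± 0.0613 and was higher in GABAergic clusters in 1 of 4 libraries. Of the 10 clusters highest in *Lepr*, 7 were glutamatergic and 3 GABAergic, and of those highest in *Insr* 1 was glutamatergic and 7 GABAergic.

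Across the 120 clusters, likeness between genes was measured by Pearson's r of log2(mean CPM + 1), which is given as a description, since the points share libraries and depth. The genes most like *Lepr* among 12463 searched were *Gm48749* (r = 0.59), *Upp2*, a uridine phosphorylase (r = 0.58), and *Pdcd7* (r = 0.575). For *Igf1r* they were *Elavl2*, a neuronal RNA-binding protein (r = 0.65), *Gm10125* (r = 0.63) and *Ddhd1* (r = 0.62). For *Insr* they were *Gm48742* (r = 0.55), *Fam131c* (r = 0.54) and *Aldh1l2* (r = 0.53), and for *Irs1* they were *Ncapd2* (r = 0.54), *Klc2* (r = 0.51) and *Hspa4l* (r = 0.51). *Irs2* was most like *Ube2b* (r = 0.50), *Slc24a2* (r = 0.50) and *Kantr* (r = 0.46), *Stat3* most like *Rbm11* (r = 0.47), *Dock6* (r = 0.43) and *Ubr4* (r = 0.40), and *Ptpn1* most like *Furin* (r = 0.40), *Cnot3* (r = 0.37) and *Cdkl2* (r = 0.36). For *Socs3*, whose counts are sparse, r did not exceed 0.38. Among the members themselves the pair of receptors *Insr* and *Igf1r* had the highest r, 0.45, whereas *Lepr* and *Stat3* had 0.19 and *Lepr* and *Socs3* -0.01.

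The groups were then compared to ask whether these genes differed 1 h after AgRP neurons were activated and POMC neurons silenced. Of the 8 members, 7 were detected in 5% of neurons or more, the minimum for a test. On UMIs summed per library, 0 of 7 passed an adjusted p of 0.05 in edgeR's quasi-likelihood fit (Benjamini-Hochberg over all 12115 genes tested). Of all genes tested, 0 passed as well (0% called), and 5.51% had an unadjusted p under 0.05, which 0 of the 7 members had. DESeq2, run on the same sums, called 2 genes higher and 8 lower, and 0 members.

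*Lepr* had 17.3 and 16.04 CPM in control neurons, against 20.7 and 16.9 CPM with AgRP-Gq;POMC-Gi. The groups overlapped, with AgRP-Gq;POMC-Gi replicate 1 highest, and the log2 fold change was 0.23 (standard error, SE, 0.15, and adjusted p = 0.813). *Stat3* had 32.7 and 33.1 CPM in control neurons, against 38.3 and 34.3 CPM with AgRP-Gq;POMC-Gi. These groups did not overlap, and the log2 fold change was 0.20 (SE 0.11, adjusted p = 0.810). With the clusters weighted alike in every library it was 0.08 for *Stat3* and 0.22 for *Lepr*, and that of *Ptpn1* was -0.15. That was a separate fit of log2(CPM + 1) without edgeR's scaling factors, in which the median of all genes was -0.05. Leaving out the scaling factors alone put the log2 fold change at 0.14 for *Stat3*, 0.17 for *Lepr* and -0.10 for *Ptpn1*.

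*Irs2* had 14.5 and 16.2 CPM in control neurons, against 10.3 and 13.9 CPM with AgRP-Gq;POMC-Gi, a log2 fold change of -0.29 (SE 0.14, adjusted p = 0.810). *Irs1* had 58.0 and 58.1 CPM in control neurons, against 43.7 and 56.3 CPM with AgRP-Gq;POMC-Gi, a log2 fold change of -0.16 (SE 0.10, adjusted p = 0.810). For both docking proteins the AgRP-Gq;POMC-Gi libraries lay below the control ones, and AgRP-Gq;POMC-Gi replicate 1 lay lowest. The oligodendrocyte markers *Mog* (12.7 and 9.84 against 5.70 and 7.51 CPM) and *Mobp* (22.6 and 17.9 against 8.07 and 12.4 CPM) had the same order of groups in neurons, also with AgRP-Gq;POMC-Gi replicate 1 lowest, and their part in the levels of *Irs1* and *Irs2* was not tested. *Igf1r* (156, 164, 150 and 146 CPM in the order control replicates 1 and 2, AgRP-Gq;POMC-Gi replicates 1 and 2) had a log2 fold change of -0.05. *Insr* (126, 125, 129 and 115 CPM) had 0.03 and *Ptpn1* (62.7, 62.3, 48.8 and 68.1 CPM) had -0.05, both with overlapping groups. In all, 3 of 7 members had both AgRP-Gq;POMC-Gi libraries below both control libraries and 1 of 7 had both above, where over all genes the shares were 27.7% and 10.4%. *Socs3*, below the detection minimum, had 0.223 and 0.328 CPM in control neurons, against 0.478 and 0.567 CPM with AgRP-Gq;POMC-Gi, from 52 UMIs in all.

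**Figure D3:**
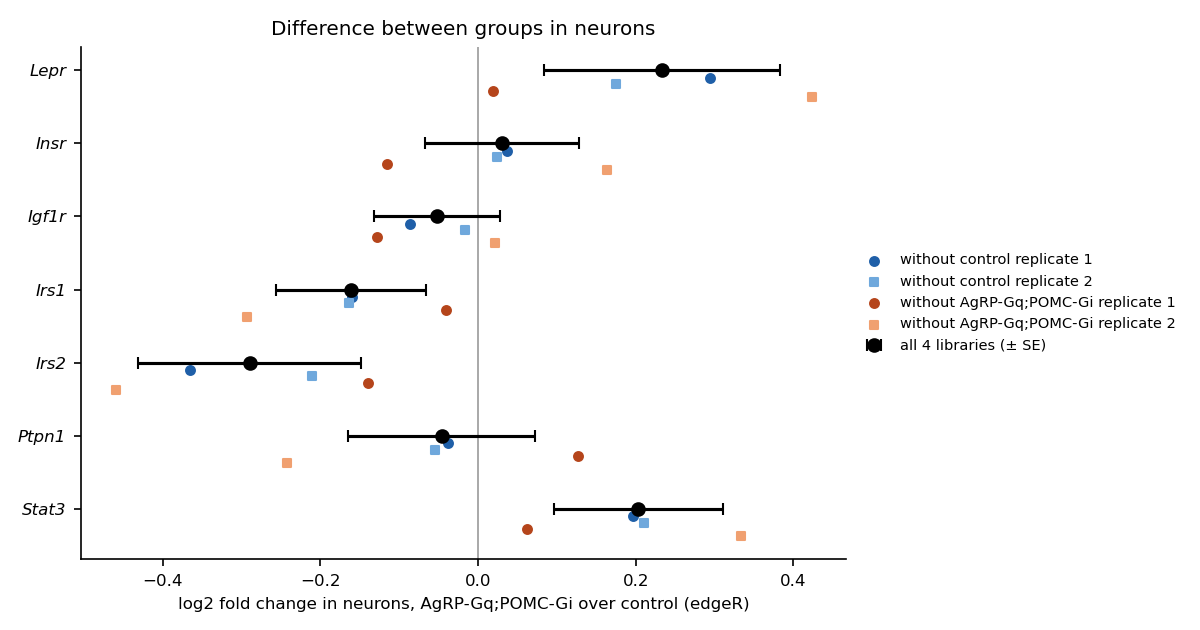
log2 fold change (AgRP-Gq;POMC-Gi over control) of the 7 tested members in neurons. Black points with bars give all 4 libraries ± standard error, and coloured points give the value with 1 library left out. *Lepr* lies at 0.23 with all libraries and at 0.02 without AgRP-Gq;POMC-Gi replicate 1.

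The values depended on AgRP-Gq;POMC-Gi replicate 1, the library that stood apart. Without it, the log2 fold change in neurons was 0.02 for *Lepr*, 0.06 for *Stat3*, -0.04 for *Irs1* and -0.14 for *Irs2*, and that of *Ptpn1* was 0.13. Without AgRP-Gq;POMC-Gi replicate 2 instead, so that replicate 1 alone stood against the controls, 5 members passed the adjusted threshold, in a fit whose spread comes from the 2 control libraries alone and assumes that the lone library varies like them (*Lepr* 0.42, *Stat3* 0.33, *Irs1* -0.29, *Irs2* -0.46 and *Ptpn1* -0.24), as did 16.6% of all genes tested. In data simulated from the neuronal sums, 75% of genes changed 1.5-fold and 100% of those changed 2-fold were called. That simulation changed 200 genes and gave genes of like level the same spread. It held no library that stood apart, so these shares need not hold for the real libraries.

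Of 49 other genes of leptin and insulin signalling, 40 reached the same detection minimum, and 0 of 40 passed the adjusted threshold. Their median log2 fold change was -0.03 against -0.0003 for all genes, and 14 of 40 had both AgRP-Gq;POMC-Gi libraries below both controls and 3 of 40 above, against 27.7% and 10.4% of all genes. Unadjusted p values under 0.05 were found for 2 of 40, against 5.51% of all genes, both with lower means in AgRP-Gq;POMC-Gi. *Gab1*, a docking protein of receptor tyrosine kinases, had 12.5 and 11.4 CPM in control neurons, against 8.35 and 9.24 CPM with AgRP-Gq;POMC-Gi (log2 fold change -0.38, adjusted p = 0.810). *Foxo1*, a transcription factor that insulin keeps out of the nucleus, had 9.83 and 9.19 against 5.20 and 7.91 CPM (log2 fold change -0.49, adjusted p = 0.810). *Leprot*, which encodes a regulator of the trafficking of the leptin receptor, followed with a log2 fold change of -0.30. In the other direction *Tsc1*, an inhibitor of mTOR, had a log2 fold change of 0.12 and the adaptor *Grb14* 0.20, neither past the threshold. The 9 genes not tested, *Socs1*, *Cish*, *Stat5a*, *Irs4*, *Insrr*, *Inppl1*, *Foxo6*, *Enpp1* and *Igf2*, had a UMI in 0.766% to 2.87% of neurons.

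In the 12 other cell types with at least 5 nuclei in every library, 66 pairs of member and cell type were tested and 0 passed the adjusted threshold, against 0.126% of all genes in these types, and DESeq2 called 0 pairs as well. An unadjusted p under 0.05 was found for 3 of 66 pairs (4.55%, against 5.73% of all genes), and these were *Lepr* in fibroblasts, *Igf1r* in astrocytes and *Irs2* in ependymal cells. *Igf1r* in astrocytes had 206 and 232 CPM in control libraries, against 170 and 177 CPM with AgRP-Gq;POMC-Gi, a log2 fold change of -0.29 (SE 0.12, adjusted p = 0.391). *Irs2* in ependymal cells had 31.2 and 24.9 CPM in control libraries, against 140 and 26.1 CPM with AgRP-Gq;POMC-Gi (log2 fold change 1.60, adjusted p = 0.991), so that 1 library carried the difference. Whether the group difference in oligodendrocytes or astrocytes differs from that in neurons was tested for the 6 members other than *Lepr* and *Socs3*, and 0 of 12 tests passed, against 0.713% of all genes for oligodendrocytes and 0.215% for astrocytes. The smallest p was that of *Igf1r* between astrocytes and neurons, with a difference in log2 fold change of -0.24 (SE 0.10, adjusted p = 0.475).

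*Lepr* in fibroblasts had the smallest p of the 66 pairs. Fibroblasts carried their markers *Dcn*, *Col1a1* and *Col1a2* at a summed 1287 to 2258 CPM, against 2.87 to 8.46 CPM in neurons. *Lepr* had 38.9 and 108 CPM in control libraries, against 312 and 156 CPM with AgRP-Gq;POMC-Gi, which did not overlap, with a log2 fold change of 1.52 (SE 0.49, adjusted p = 0.9997; 0% of 7973 genes were called in fibroblasts). Without a filter on genes the adjusted p was 0.00558, in a fit that called 0.214% of 19607 genes. The fibroblasts were a mixture of 5 clusters that the libraries sampled unequally. *Lepr* was counted in 36.3% of the 262 nuclei of cluster 27, in 48.9% of the 131 nuclei of cluster 69 and in 14.5% of the 159 nuclei of cluster 47, but in 4.94% of cluster 44 and in 0 of the 105 nuclei of cluster 93. Control replicate 1 had 72 fibroblast nuclei, of which 55 belonged to cluster 44. Averaged over the 3 clusters that have at least 5 nuclei in every library, with each cluster weighted in every library by its nuclei in all libraries together, *Lepr* was at 76.025 and 107 CPM in control libraries, against 341 and 137 CPM with AgRP-Gq;POMC-Gi, still without overlap. Within cluster 27 the values were 50.2 and 175 CPM in control libraries, against 448 and 259 CPM with AgRP-Gq;POMC-Gi, and the first of these rests on 1 UMI in 7 nuclei. The groups overlapped in cluster 47 (172 and 70.2 against 462 and 75.7 CPM, with 6 nuclei in control replicate 1) and in cluster 44 (23.3 and 32.8 against 49.9 and 0 CPM). Cluster 69 had 184 and 202 against 423 and 256 CPM, with 1 nucleus in control replicate 1. The 3 choroid plexus markers *Ttr*, *Folr1* and *Kl* summed to 66.7 and 4962 CPM in control and 92.6 and 3701 CPM in AgRP-Gq;POMC-Gi fibroblasts, high in both replicate 2 libraries, whereas *Lepr* was highest in AgRP-Gq;POMC-Gi replicate 1. Their part in the level of *Lepr* was not tested. In endothelial cells *Lepr* also had both AgRP-Gq;POMC-Gi libraries above, at 81.5 and 43.7 against 32.7 and 30.2 CPM (log2 fold change 0.86, adjusted p = 0.818), from 54 UMIs. The choroid plexus markers summed to 13.6 and 7861 CPM in control and 40.8 and 4221 CPM in AgRP-Gq;POMC-Gi endothelial cells. Their part in *Lepr* there was not tested either. *Lepr* was not alone in this order in fibroblasts. *Igf1r*, *Insr* and *Stat3* also had both AgRP-Gq;POMC-Gi libraries above there, with log2 fold changes of 0.52, 0.30 and 0.54 (adjusted p = 0.9997 in edgeR for each). *Irs1*, *Irs2* and *Ptpn1* overlapped between the groups. Over all genes tested, both AgRP-Gq;POMC-Gi libraries lay above both control libraries for 15.1% in fibroblasts and 18.2% in endothelial cells.

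**Figure D4:**
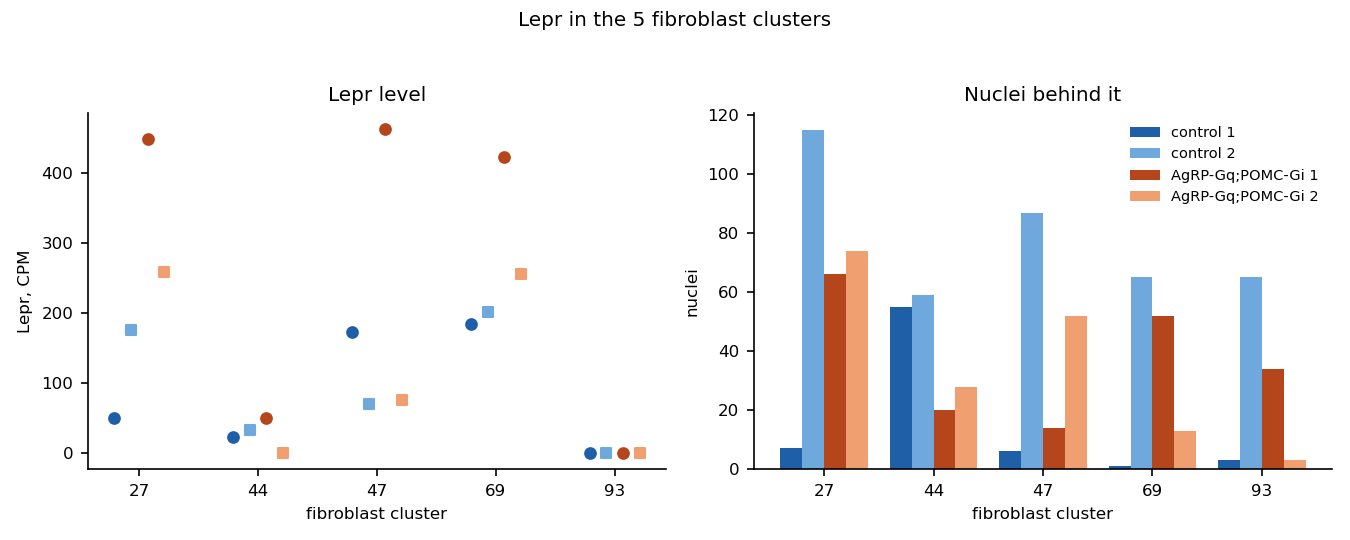
*Lepr* CPM by library (left) and number of nuclei by library (right) in the 5 fibroblast clusters. *Lepr* is at 0 in cluster 93 and highest in AgRP-Gq;POMC-Gi replicate 1 in clusters 27, 47 and 69, and 55 of the 72 fibroblast nuclei of control replicate 1 are in cluster 44.

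In single neuronal clusters, 787 pairs of member and cluster were tested, and 0 passed the threshold, adjusted over the genes of the cluster or over all genes of all clusters, where 0.0387% and 0.0279% of all genes did. DESeq2 called 0 pairs as well. An unadjusted p under 0.05 was found for 41 pairs (5.21%, against 4.51% of all genes), 22 with higher and 19 with lower values in AgRP-Gq;POMC-Gi. *Lepr* contributed 7 of its 78 tested clusters (8.97%), all 7 higher in AgRP-Gq;POMC-Gi, and *Irs2* contributed 7 (6.42% of those tested for it), all 7 lower. *Insr* had 2 of 120 such clusters, *Igf1r* 9, *Irs1* 7, *Ptpn1* 1 and *Stat3* 8. The directions over all genes were not counted, and the clusters share the same 4 libraries, AgRP-Gq;POMC-Gi replicate 1 included. The common directions of *Lepr* and *Irs2* are therefore not read as a result. In data simulated from the Gcg/Reln cluster, 50% of genes changed 4-fold and 3.5% of those changed 2-fold were called, so a difference in 1 cluster that did not pass is not shown to be absent.

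The Gcg/Reln neurons held the smallest p of *Stat3*. The study had selected this cluster and cluster 76 by a score of genes induced by neuronal activity, compared between these same groups. Its level there was 18.1 and 31.7 CPM in control libraries, against 77.4 and 74.7 CPM with AgRP-Gq;POMC-Gi, from 55 UMIs in 23, 24, 14 and 28 nuclei. The groups did not overlap, and the log2 fold change was 1.70 (SE 0.46, unadjusted p = 0.00105 and adjusted p = 0.354 in edgeR). *Lepr* in the same cluster had 10.9 and 47.6 CPM in control libraries, against 58.1 and 71.8 CPM with AgRP-Gq;POMC-Gi, a log2 fold change of 1.30 (SE 0.50, adjusted p = 0.792), and 0.58 without control replicate 1. By share of nuclei with a UMI the groups overlapped for *Lepr*, at 13.04% and 33.3% in control libraries, against 28.6% in both with AgRP-Gq;POMC-Gi, where its 12 and 25 UMIs came from 4 and 8 nuclei. Of all genes tested in this cluster, 13.2% had both AgRP-Gq;POMC-Gi libraries above and 21.9% had both below. *Socs3* had 2 UMIs in this cluster. The groups overlapped for *Irs1* (50.6 and 51.5 against 53.2 and 45.9 CPM), *Insr* and *Irs2* (25.3 and 11.9 against 4.84 and 14.4 CPM, log2 fold change -0.71, adjusted p = 0.982). *Ptpn1* did not overlap, at 36.2 and 55.5 against 58.1 and 66.05 CPM (log2 fold change 0.56, adjusted p = 0.967), and *Igf1r* had 177 and 194 CPM in control libraries, against 165 and 164 CPM with AgRP-Gq;POMC-Gi (log2 fold change -0.07, adjusted p = 0.982). *Stat3* had lower means in AgRP-Gq;POMC-Gi in the *Dbh* neurons of cluster 76 (74.3 and 78.03 against 40.7 and 49.4 CPM, log2 fold change -0.69, adjusted p = 0.994), where *Igf1r* was at 215 and 165 against 86.9 and 122 CPM (log2 fold change -0.77, adjusted p = 0.751).

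**Figure D5:**
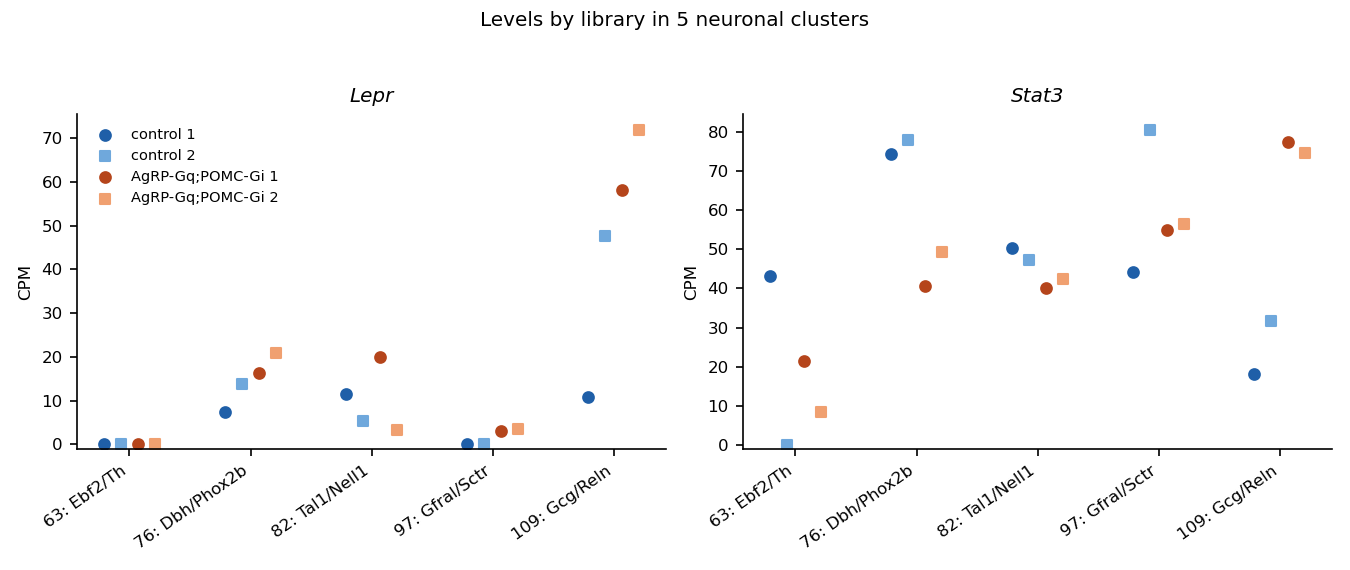
CPM of *Lepr* and *Stat3* by library in 5 neuronal clusters. In the Gcg/Reln cluster both AgRP-Gq;POMC-Gi libraries lie above both control libraries for *Lepr* and *Stat3*. These are 58.1 and 71.8 CPM for *Lepr*, from 4 and 8 nuclei with a UMI. For *Stat3* they are 77.4 and 74.7 CPM, from 5 and 12 nuclei with a UMI. *Lepr* is at 0 in all libraries of cluster 63.

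For the other members, the smallest p values fell in other clusters. *Irs1* in cluster 39 (Col19a1/Sv2b) had 66.8 and 91.7 CPM in control libraries, against 37.7 and 35.1 CPM with AgRP-Gq;POMC-Gi, from 181 UMIs, and its log2 fold change was -1.01 (SE 0.26, adjusted p = 0.297). *Insr* in cluster 45 (Prdm16/Zfp804b) had 157 and 188 CPM in control libraries, against 117 and 94.996 CPM with AgRP-Gq;POMC-Gi (log2 fold change -0.70, adjusted p = 0.892). *Igf1r* in cluster 105 (Ebf2/Calb1) had 47.7 and 27.9 against 92.2 and 110 CPM (log2 fold change 1.57, adjusted p = 0.759). These 3 pairs, chosen for their low p, did not overlap between the groups, and 0 of 3 passed. Over all genes tested, 21.7% in cluster 39 and 16.9% in cluster 45 had both AgRP-Gq;POMC-Gi libraries below, and 17.7% in cluster 105 had both above. *Lepr* in cluster 79 (Kcnmb2/Slc6a5) had 8.68 and 0 against 17.9 and 24.7 CPM from 19 UMIs (adjusted p = 0.934), *Irs2* in cluster 156 (Ankfn1/Pou4f1) had 60.3 and 38.1 against 0 and 15.6 CPM from 13 UMIs (adjusted p = 0.741), and *Ptpn1* in the Prdm6/Grp cluster had 27.5 and 28.1 against 100.4 and 55.3 CPM from 26 UMIs (adjusted p = 0.991). In the Prph/Slc5a7 cluster, where *Stat3* had its highest mean, it stood at 196 and 84.5 CPM in control libraries, against 38.9 and 51.6 CPM with AgRP-Gq;POMC-Gi (log2 fold change -1.42, adjusted p = 0.166). Without control replicate 2, so that 1 control library of 9 nuclei in this cluster was left, its log2 fold change was -1.97 with an adjusted p of 0.00374, in a fit that called 1.13% of genes, whereas without control replicate 1 it was -0.77 with an adjusted p of 0.778.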

How the data were processed

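Nuclei were sorted by the DNA dye DRAQ5. The authors made the deposited count tables of UMIs per gene and nucleus with Cell Ranger 7.0.0, and clustered and annotated nuclei with Seurat 4.3.0, per the labels. Of 44303 barcodes, the 39461 that passed their filter and doublet removal were kept, with their clusters and cell types. No doublet caller was run here. UMIs were summed per library and cell type or cluster, and CPM was computed from the sums. Cell types and clusters with 5 or more nuclei per library, and genes detected in 5% of nuclei or more, were tested with edgeR 4.0.16 (quasi-likelihood, TMM normalisation, Benjamini-Hochberg adjustment over all genes of the fit). DESeq2 1.42.0, other filters and scalings, thinning, equal cluster composition, a replicate block and leaving out each library were alternatives. Scripts were tested on simulated counts. The members and gene lists were chosen with earlier results of these data known. Clusters were named in the text by a fixed rule. For each member these were the 3 with the highest mean and the 1 with the lowest p, among those with at least 10 UMIs. A further 5 clusters were added. Of these, the study had selected clusters 63, 76, 82 and 109 by a score of genes induced by neuronal activity, compared between these same groups. Cluster 97 was added for *Gfral*. Some items that these rules would name are not reported here.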

Additional observations from a re-analysis of the deposited data

How the results depend on the processing

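In neurons, 0 members passed under DESeq2, other filters and scalings and equal cluster composition, nor did any of the 5 that reached the detection minimum after thinning to 2000 UMIs (*Lepr* and *Irs2* did not), and leaving out 1 library at a time gave 0 to 5 members and 0 to 7 pathway genes, the highest without AgRP-Gq;POMC-Gi replicate 2. The sign turned for *Insr* without TMM factors (-0.0333) and without AgRP-Gq;POMC-Gi replicate 1 (-0.12), for *Igf1r* without AgRP-Gq;POMC-Gi replicate 2 (0.0220) and for *Ptpn1* without AgRP-Gq;POMC-Gi replicate 1 (0.13). Leaving out 1 library put the log2 fold change between -0.12 and 0.16 for *Insr*, -0.13 and 0.0220 for *Igf1r*, and -0.24 and 0.13 for *Ptpn1*. Without a filter on genes, 1 pair outside neurons passed, *Lepr* in fibroblasts. Leaving out 1 library gave 0 to 1 member-cluster pairs, the 1 being *Stat3* in the Prph/Slc5a7 cluster without control replicate 2. The cause was not tested. The cluster with the highest level remained the same for 1 of 8 members by share of nuclei after thinning, *Socs3*, whose few UMIs allowed no ranking, so that 0 of the 7 ranked members kept theirs. Without 1 library it did for 4 to 5 of 8, with *Socs3* among them only without control replicate 1. The log2 ratio of group means of *Lepr* in fibroblasts was 1.67, and 1.39 with equal cluster composition, an alternative chosen after seeing the data.

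The replicate numbers are shared between groups, but nothing states that they pair the libraries. Deviations of same-numbered libraries from their group means correlated at 0.18 in neurons, 0.34 in oligodendrocytes and 0.24 in astrocytes, over 2 pairs. With a replicate block, 45 genes were higher and 123 lower in neurons, against 0 without it, and 0 members passed.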
